A study of Homo sapiens with 10 samples.

Results

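The genes described here are 42 genes of mitosis and of the G2/M transition, the step that takes a cell into mitosis, given as a list of gene names that was drawn up with earlier results of these data known. The array held a probe set annotated to that gene alone for 37 of the 42, among 7713 genes so covered in the whole table. CCNA2 and AURKA had 2 such probe sets each, and the probe set with the highest mean stood for the gene. CENPA was covered only through a probe set shared with other genes, and CCNB1, FOXM1, DLGAP5 and KIF14 were not analysed here. The 37 genes read above a floor of 37.5 signal units, percentile 25 of all values, on 10 of 10 arrays.

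The cells were U937, a human monocytic line, and cells of every group had been differentiated with IFN gamma, a cytokine that activates monocytes and macrophages. In 4 of the 5 groups a cell surface receptor that binds IgG antibodies was cross-linked: CD64, the high-affinity receptor, for 6 h or for 2 h, and CD32, the low-affinity receptor, for 6 h or for 2 h. The last group was the control, with IFN gamma alone and no time named in its labels. Each group had 2 arrays of total RNA, called array 1 and array 2 here. Whether duplicates came from separate cultures is not stated, and the p-values reflect only how far these arrays differ. The number of arrays limits the precision of every value. In whole-culture RNA, fewer cells in mitosis and less of a transcript per cell cannot be told apart.

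A dividing cell makes most of its mitotic proteins only as it nears division, and the transcripts of these genes are therefore used as a sign of proliferation. CDK1 with an A- or B-type cyclin starts mitosis, the Polo-like and Aurora kinases build the spindle and the kinetochores, and the spindle checkpoint holds back the anaphase promoting complex until every chromosome is attached. That complex then marks securin and cyclin B for destruction, separase cuts the cohesin between sister chromatids, and kinesins and a central spindle complex divide the cell. Many of these genes carry a cell cycle homology region, whose core is often TTTGAA and which is bound by MuvB complexes, and CCAAT boxes, which are bound by NF-Y.

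The deposited values were signal intensities on a linear scale, already scaled to a common trimmed mean. The median signal of an array lay between 101 and 153. Tests are limma tests on log2 signal over 7708 probe sets, and a call means a Benjamini-Hochberg adjusted p under 0.05 over the 7708. Log2 changes are cross-linked minus control, CD64 minus CD32, or 6 h minus 2 h, each with its standard error. The median SD between duplicate arrays over the 37 genes lay between 0.0843 and 0.116 log2 units in the 5 groups. Of 12 myeloid markers on the array, 9 read above the floor on 10 of 10 arrays, among them ITGAM, ITGB2, CSF1R and SPI1. The summed signal of the 12 was 19299.8 to 21265 at CD64 6 h, 19000.3 to 20102 at CD64 2 h, 28391 to 28649 at CD32 6 h and 21806 to 23358 at CD32 2 h, against 21752 to 23693 in control. Of markers of other lineages, 2 of 6 for T cells, 1 of 3 for B cells, 2 of 5 for NK cells and 0 of 7 for epithelium and fibroblasts read above the floor on 10 of 10 arrays. Control probe sets differed between groups: the 9 probe sets for added transcripts had a mean log2 signal of 9.03 at CD64 6 h, 10.55 at CD64 2 h, 12.11 at CD32 6 h and 11.03 at CD32 2 h, against 10.38 in control. The 3'/5' ratio for actin stood at 1.12 for CD64 6 h, 1.81 for CD64 2 h, 1.99 for CD32 6 h and 1.56 for CD32 2 h, against 1.30 in control, and that for GAPDH at 0.88 for CD64 6 h, 0.95 for CD64 2 h, 1.17 for CD32 6 h and 0.88 for CD32 2 h, against 0.87 in control. The part of these measures in the results below was not tested.

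Promoters are shown because the genes moved together in several comparisons and because the motifs of this gene class can be read in them. The RefSeq promoter table (GRCh38.p14) matched 30 of the 37 genes, and the others were AURKA, BIRC5, TPX2, BUB3, TTK, UBE2C and RACGAP1. The 250 bases before the first listed start were searched for TTTGAA, which reads TTCAAA on the other strand, and for CCAAT, which reads ATTGG on the other strand. Capitals mark every match, overlapping matches were counted separately, and each sequence runs 5′ to 3′ on the gene's own strand up to the base before the start. ESPL1 (chr12:53268049-53268298 (+)) and TOP2A (chr17:40417897-40418146 (-)) had the largest falls against control. CCNB2 (chr15:59104896-59105145 (+)) encodes a mitotic cyclin, and BUB1 (chr2:110678064-110678313 (-)) holds CCAAT but no TTTGAA. CKS2 (chr9:89310945-89311194 (+)) was higher than control at CD64 2 h. MKI67 (chr10:128126424-128126673 (-)) holds both motifs and was called in 0 of the 9 comparisons.
ESPL1: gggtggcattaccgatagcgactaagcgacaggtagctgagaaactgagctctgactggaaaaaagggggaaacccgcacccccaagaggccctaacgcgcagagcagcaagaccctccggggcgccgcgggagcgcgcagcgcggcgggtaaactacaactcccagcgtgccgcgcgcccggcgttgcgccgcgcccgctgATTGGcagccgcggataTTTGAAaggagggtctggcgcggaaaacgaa
TOP2A: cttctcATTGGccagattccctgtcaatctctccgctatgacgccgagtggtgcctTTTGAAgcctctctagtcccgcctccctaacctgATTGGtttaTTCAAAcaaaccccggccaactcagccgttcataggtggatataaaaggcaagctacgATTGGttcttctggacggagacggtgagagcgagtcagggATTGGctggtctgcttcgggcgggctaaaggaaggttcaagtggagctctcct
CCNB2: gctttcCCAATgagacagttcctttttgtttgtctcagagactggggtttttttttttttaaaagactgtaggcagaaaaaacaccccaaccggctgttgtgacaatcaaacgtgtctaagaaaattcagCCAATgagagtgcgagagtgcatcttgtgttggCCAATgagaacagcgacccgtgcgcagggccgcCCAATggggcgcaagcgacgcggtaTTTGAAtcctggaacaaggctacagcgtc
BUB1: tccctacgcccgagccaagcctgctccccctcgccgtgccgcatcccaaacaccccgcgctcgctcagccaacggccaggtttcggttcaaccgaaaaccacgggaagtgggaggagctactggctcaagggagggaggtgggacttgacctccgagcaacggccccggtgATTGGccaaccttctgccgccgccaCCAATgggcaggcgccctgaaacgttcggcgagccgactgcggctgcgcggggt
CKS2: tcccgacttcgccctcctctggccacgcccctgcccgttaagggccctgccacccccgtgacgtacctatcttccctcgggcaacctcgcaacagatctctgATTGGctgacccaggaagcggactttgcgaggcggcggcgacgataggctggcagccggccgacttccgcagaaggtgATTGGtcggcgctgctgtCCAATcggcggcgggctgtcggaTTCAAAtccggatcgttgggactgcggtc
MKI67: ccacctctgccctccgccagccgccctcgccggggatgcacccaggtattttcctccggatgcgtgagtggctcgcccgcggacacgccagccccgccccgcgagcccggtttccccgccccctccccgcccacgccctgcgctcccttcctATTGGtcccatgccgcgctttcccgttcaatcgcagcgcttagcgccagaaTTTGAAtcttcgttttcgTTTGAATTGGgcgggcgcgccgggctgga

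TTTGAA was found on either strand in 16 of the 30 promoters (53.3%), against 9.83% of 5547 tested genes with an entry and 13.3% of all 35116 promoters in the table. CCAAT was found in 23 of 30 (76.7%), against 35.1% of the tested genes and 32.0% of all promoters. Both motifs stood in 15 of 30 (50.0%), against 3.89% of the tested genes and 4.69% of all promoters. In the sequences above, TTTGAA begins 31 bases before the start of ESPL1 and 29 bases before that of CCNB2, and TTCAAA begins 29 bases before that of CKS2. After these positions were seen, the last 50 bases were counted alone, and TTTGAA lay there in 12 of 30 promoters, against 1.46% of the tested genes and 2.28% of all promoters. TTTGAA stood in 10 of 20 promoters of genes that fell in 1 or more comparisons with control, and in 6 of 10 promoters of the other genes. These matches describe letters in a window and were not tested as binding sites.

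Across the 37 genes, signals were below control at CD64 6 h, CD32 6 h and CD32 2 h, and near control at CD64 2 h. The median log2 difference from the mean of the control arrays was -0.37 and -0.40 on the CD64 6 h arrays, 0.15 and 0.003 on the CD64 2 h arrays, -0.58 and -0.55 on the CD32 6 h arrays and -0.34 and -0.40 on the CD32 2 h arrays, against -0.03 and 0.03 on the control arrays. The duplicates of a group lay close to each other, and the CD64 2 h arrays lay above the other 6 cross-linked arrays. Over all probe sets tested the same median was 0.00 and -0.08 on the CD64 6 h arrays and -0.10 and -0.16 on the CD64 2 h arrays. It was -0.07 and -0.09 on the CD32 6 h arrays, -0.07 and 0.00 on the CD32 2 h arrays and 0.04 and -0.04 on the control arrays. On the CD64 6 h arrays 31 and 34 of the 37 genes read below the control mean, on the CD64 2 h arrays 15 and 17, on the CD32 6 h arrays 34 and 35 and on the CD32 2 h arrays 31 and 31. By group mean, CD32 6 h was the lowest group for 17 genes, CD64 6 h for 12, CD32 2 h for 5 and CD64 2 h for 3, and control for 0. CD64 2 h was the highest group for 20 genes, control for 12, CD32 2 h for 3, and CD64 6 h and CD32 6 h for 1 each. How often a group was lowest or highest, or an array below the control mean, was not counted over all probe sets. A moderated F-test (limma) that took the 4 contrasts against control together called 29 of the 37 genes, against 34.5% of all probe sets. The 8 others were CDC25B, CDC25C, CDC20, CENPE, CENPF, KIF11, KIF4A and MKI67, and each of these was called in 0 of the 9 comparisons as well.

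**Figure D1:**
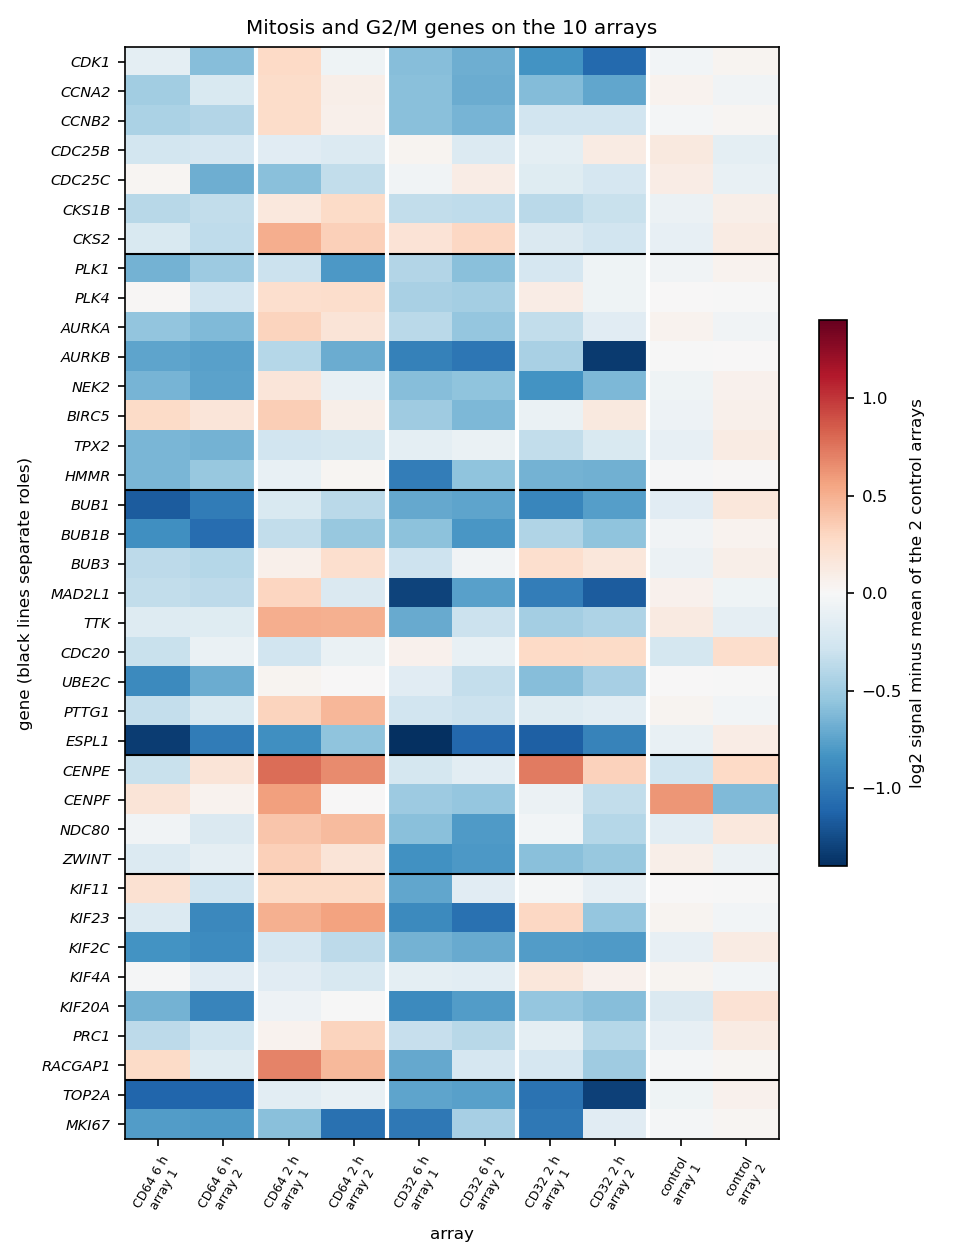
Log2 signal of the 37 genes (down the page, in order of role) on the 10 arrays (across), minus the mean of the 2 control arrays; blue is lower and red is higher than control. The CD64 6 h, CD32 6 h and CD32 2 h arrays are mostly blue, with medians of -0.34 to -0.58, and the CD64 2 h arrays are mixed, with medians of 0.15 and 0.003.

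The cross-linked groups were each set against control in 4 comparisons, which share the 2 control arrays. The labels name no time for the control, and the part of time in these 4 comparisons was not tested. After 6 h of CD64 cross-linking 0 genes rose and 15 fell, where 20.6% of all probe sets were called, 10.7% higher and 9.94% lower. Both arrays read below both control arrays for 27 of the 37 genes and above them for 1, as they did for 27.2% and 25.9% of all probe sets. The median log2 change of the 37 genes was -0.36, against -0.04 over all probe sets tested. With 1 of the 4 arrays left out the count was 11 to 14, and CCNB2, AURKA, NEK2, TPX2, BUB1, BUB1B, UBE2C, ESPL1, KIF2C, KIF20A and TOP2A fell in each of these fits.

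After 2 h of CD64 cross-linking 3 genes rose (PTTG1, CKS2 and TTK) and 3 fell (ESPL1, PLK1 and BUB1B), and the share called was close to that of all probe sets (15.9%, with 7.64% higher and 8.24% lower). The CD64 2 h arrays both read below both control arrays for 12 of the 37 genes and above them for 15, as they did for 32.5% and 19.1% of all probe sets. The median log2 change was 0.10, against -0.13 over all probe sets tested, and after quantile normalization it was 0.02, against 0.00. With that normalization 1 gene rose (PTTG1) and 3 fell (ESPL1, BUB1B and TPX2). None of the 6 genes was called in every fit that left out an array: PTTG1 and PLK1 were called without CD64 2 h array 1, CKS2 and ESPL1 without CD64 2 h array 2, PTTG1 without control array 1 and CKS2 without control array 2.

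After 6 h of CD32 cross-linking 0 genes rose and 22 fell, where 20.0% of all probe sets were called, 9.63% higher and 10.3% lower. The CD32 6 h arrays both read below both control arrays for 29 of the 37 genes and above them for 1, as they did for 31.0% and 23.0% of all probe sets. The median log2 change was -0.53, against -0.08 over all probe sets tested. The count was 13 without CD32 6 h array 1, 13 without CD32 6 h array 2, 14 without control array 1 and 13 without control array 2. CCNA2, CCNB2, HMMR, BUB1, BUB1B, MAD2L1, ESPL1, ZWINT, KIF2C, KIF20A and TOP2A fell in each of these fits. The CD32 6 h arrays were also the highest in the summed myeloid markers, in the added transcripts and in the actin ratio, and the part of these in the result was not tested.

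After 2 h of CD32 cross-linking 0 genes rose and 15 fell, where 15.5% of all probe sets were called, 8.86% higher and 6.6% lower. The CD32 2 h arrays both read below both control arrays for 27 of the 37 genes and above them for 4, as they did for 25.9% and 24.3% of all probe sets. The median log2 change was -0.28, against -0.03 over all probe sets tested. The count was 10 without CD32 2 h array 1, 9 without CD32 2 h array 2, 14 without control array 1 and 12 without control array 2. CDK1, CCNA2, NEK2, BUB1, ESPL1, ZWINT, KIF2C and TOP2A fell in each of these fits.

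**Figure D2:**
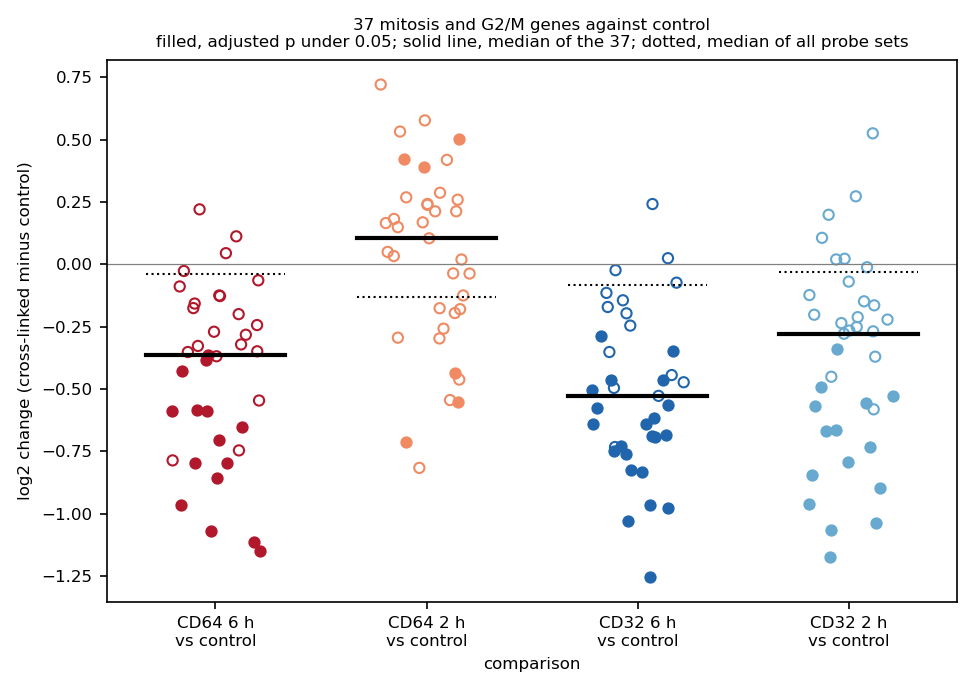
Log2 change of each of the 37 genes (points) in the 4 comparisons with control; filled points have an adjusted p under 0.05, solid lines are medians of the 37 genes and dotted lines medians of all probe sets tested. The 37 genes have a median of -0.36 at CD64 6 h, 0.10 at CD64 2 h, -0.53 at CD32 6 h and -0.28 at CD32 2 h.

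Of the 7 genes on the array that encode CDK1, its cyclins, phosphatases and partners, 2 fell at CD64 6 h, 1 rose at CD64 2 h, 4 fell at CD32 6 h and 3 fell at CD32 2 h. The shares of all probe sets called were 20.6%, 15.9%, 20.0% and 15.5% in the same order. Differences between this and the other roles below were not tested. CDK1, the kinase that drives entry into mitosis, read 2243 and 1636 at CD64 6 h, 2992 and 2365 at CD64 2 h, 1632 and 1544 at CD32 6 h and 1387 and 1162 at CD32 2 h, against 2412 and 2538 in control. The arrays of CD64 6 h, CD32 6 h and CD32 2 h lay below both control arrays, while those of CD64 2 h lay on either side of them. CDK1 fell at CD32 6 h (log2 -0.64 ± 0.16, adjusted p = 0.015) and at CD32 2 h (log2 -0.96 ± 0.16, adjusted p = 0.0021). Its change at CD64 6 h was -0.37 ± 0.16 (adjusted p = 0.137). The CDK1 call at CD32 6 h was lost whichever array was left out (adjusted p up to 0.106). CCNB2, cyclin B2, read 2339.8 and 2390.2 at CD64 6 h, 3805 and 3346 at CD64 2 h, 2124 and 2022 at CD32 6 h and 2639 and 2641 at CD32 2 h, against 3130.3 and 3232 in control. Its CD64 2 h arrays were above both control arrays and its other cross-linked arrays below them. CCNB2 fell at CD64 6 h (log2 -0.43 ± 0.09, adjusted p = 0.00498) and at CD32 6 h (log2 -0.62 ± 0.09, adjusted p = 0.000566).

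CCNA2, cyclin A2, read 1127 and 1363 at CD64 6 h, 1882 and 1672 at CD64 2 h, 1056 and 972 at CD32 6 h and 1035 and 951 at CD32 2 h, against 1635 and 1523 in control. The CD32 arrays were the 4 lowest, and the CD64 2 h arrays were above both control arrays. CCNA2 fell at CD32 6 h (log2 -0.64 ± 0.12, adjusted p = 0.00296) and at CD32 2 h (log2 -0.67 ± 0.12, adjusted p = 0.00312). The other CCNA2 probe set read 774 and 894 at CD64 6 h, 1005 and 1096 at CD64 2 h, 731 and 866 at CD32 6 h and 1101 and 1117 at CD32 2 h, against 1306 and 1258 in control. There the 6 h arrays of both receptors were the lowest and no cross-linked array reached the control arrays. It fell at CD64 6 h (log2 -0.62 ± 0.12, adjusted p = 0.00326) and CD32 6 h (log2 -0.69 ± 0.12, adjusted p = 0.00199). At CD32 2 h its change was -0.21 ± 0.12 (adjusted p = 0.307), so the probe sets differed in their calls.

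CKS1B and CKS2 encode small proteins that bind cyclin-dependent kinases. CKS2 read 2406 and 2185 at CD64 6 h, 3962 and 3518 at CD64 2 h, 3195 and 3403 at CD32 6 h and 2415 and 2322 at CD32 2 h, against 2574 and 3021 in control. The CD64 2 h and CD32 6 h arrays were above both control arrays and the others below them. CKS2 rose at CD64 2 h (log2 0.42 ± 0.10, adjusted p = 0.02). The CKS2 call at CD64 2 h was lost without control array 1 or CD64 2 h array 1 (adjusted p up to 0.142). CKS1B read 3911 to 4114 on the 6 arrays of CD64 6 h, CD32 6 h and CD32 2 h and 5672 and 6167 at CD64 2 h, against 4823 and 5400.2 in control. CKS1B fell at CD64 6 h (log2 -0.36, adjusted p = 0.013), CD32 6 h (-0.35, adjusted p = 0.0174) and CD32 2 h (-0.34, adjusted p = 0.0247), and each call was lost without 3 of the 4 arrays, control array 2 among them (adjusted p up to 0.0804, 0.08 and 0.133). CDC25B and CDC25C encode phosphatases that activate CDK1. CDC25B ranged from 787 to 1035 over the 10 arrays, with changes against control of -0.24 to -0.01, and CDC25C from 130.2 to 224, with changes of -0.46 to 0.02.

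Of the 8 genes of mitotic kinases, the chromosomal passenger complex and spindle assembly, 5 fell at CD64 6 h, 1 at CD64 2 h, 6 at CD32 6 h and 3 at CD32 2 h, and 0 rose. Among all probe sets 20.6%, 15.9%, 20.0% and 15.5% were called in the same order. PLK1, the Polo-like kinase that promotes mitotic entry and spindle assembly, read 626 and 697 at CD64 6 h, 805 and 567 at CD64 2 h, 747 and 662 at CD32 6 h and 843 and 949 at CD32 2 h, against 958 and 1026 in control. All 8 cross-linked arrays were below both control arrays. PLK1 fell at CD64 6 h (log2 -0.59 ± 0.16, adjusted p = 0.0257) and CD64 2 h (log2 -0.55 ± 0.16, adjusted p = 0.0417), and its change at CD32 6 h was -0.50 ± 0.16 (adjusted p = 0.055). The PLK1 call at CD64 6 h was lost whichever array was left out (adjusted p up to 0.171). The PLK1 call at CD64 2 h was lost without control array 1, control array 2 or CD64 2 h array 2 (adjusted p up to 0.281). AURKB, the Aurora kinase of the passenger complex, read 411 and 405 at CD64 6 h, 519 and 424 at CD64 2 h, 355 and 340.1 at CD32 6 h and 499.8 and 270.2 at CD32 2 h, against 679 and 689 in control. Every cross-linked array was below both control arrays, and the CD32 2 h arrays were far apart. AURKB fell at CD32 6 h (log2 -0.98 ± 0.24, adjusted p = 0.0164) and CD32 2 h (log2 -0.90 ± 0.24, adjusted p = 0.0312). The AURKB call at CD32 6 h was lost whichever array was left out (adjusted p up to 0.0977). The AURKB call at CD32 2 h was lost without control array 1, control array 2 or CD32 2 h array 2 (adjusted p up to 0.173).

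AURKA, the Aurora kinase of the spindle poles, read 2012 and 1925 at CD64 6 h, 3658 and 3343 at CD64 2 h, 2267 and 2025 at CD32 6 h and 2336 and 2641 at CD32 2 h, against 3068 and 2848 in control. The CD64 2 h arrays were the highest and the CD64 6 h arrays the lowest. AURKA fell at CD64 6 h (log2 -0.59 ± 0.10, adjusted p = 0.00166) and CD32 6 h (log2 -0.46 ± 0.10, adjusted p = 0.00722). The AURKA call at CD32 6 h was lost without control array 1 or CD32 6 h array 2 (adjusted p up to 0.0621). The other AURKA probe set changed by -0.12 ± 0.10 at CD64 6 h (adjusted p = 0.521) and by -0.08 ± 0.10 at CD32 6 h (adjusted p = 0.637), so these falls rest on 1 of 2 probe sets. NEK2, a kinase of centrosome separation, read 877 and 821 at CD64 6 h, 1555 and 1285 at CD64 2 h, 913 and 938 at CD32 6 h and 774 and 895 at CD32 2 h, against 1322 and 1444 in control. The arrays of CD64 6 h, CD32 6 h and CD32 2 h were below both control arrays, and the CD64 2 h arrays lay on either side of them. NEK2 fell at CD64 6 h (log2 -0.70 ± 0.12, adjusted p = 0.0019), CD32 6 h (log2 -0.58 ± 0.12, adjusted p = 0.00652) and CD32 2 h (log2 -0.73 ± 0.12, adjusted p = 0.00234). The NEK2 call at CD32 6 h was lost without control array 2 or CD32 6 h array 1 (adjusted p up to 0.0538).

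BIRC5, survivin, a passenger complex subunit that also inhibits apoptosis, read 594 and 555 at CD64 6 h, 623 and 523 at CD64 2 h, 348 and 318 at CD32 6 h and 462 and 540.1 at CD32 2 h, against 469 and 517 in control. The CD32 6 h arrays were below both control arrays, and the 4 CD64 arrays above them. BIRC5 fell at CD32 6 h (log2 -0.57 ± 0.16, adjusted p = 0.0255). The BIRC5 call at CD32 6 h was lost whichever array was left out (adjusted p up to 0.108). HMMR, a spindle protein that binds hyaluronan, read 829 and 898 at CD64 6 h, 1206 and 1317 at CD64 2 h, 662 and 877 at CD32 6 h and 817 and 813 at CD32 2 h, against 1280.2 and 1305 in control. The 6 arrays of CD64 6 h, CD32 6 h and CD32 2 h were below both control arrays. HMMR fell at CD64 6 h (log2 -0.58 ± 0.13, adjusted p = 0.00928), CD32 6 h (log2 -0.76 ± 0.13, adjusted p = 0.00215) and CD32 2 h (log2 -0.67 ± 0.13, adjusted p = 0.00625). The HMMR call at CD64 6 h was lost without control array 1, control array 2 or CD64 6 h array 1 (adjusted p up to 0.0842). The HMMR call at CD32 2 h was lost without CD32 2 h array 1 or CD32 2 h array 2 (adjusted p up to 0.0622). TPX2, which activates Aurora A on the spindle, fell at CD64 6 h (log2 -0.65 ± 0.09, adjusted p = 0.000559). PLK4, the kinase of centriole duplication, fell at CD32 6 h (log2 -0.47 ± 0.13, adjusted p = 0.031). The PLK4 call at CD32 6 h was lost whichever array was left out (adjusted p up to 0.0954).

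Of the 9 genes of the spindle checkpoint, anaphase promotion and sister separation, 5 fell at CD64 6 h, 2 rose and 2 fell at CD64 2 h, 6 fell at CD32 6 h and 5 fell at CD32 2 h. The shares of all probe sets called were 20.6%, 15.9%, 20.0% and 15.5% in the same order. ESPL1, separase, the protease that opens cohesin at anaphase, read 439.7 and 560.3 at CD64 6 h, 607 and 744 at CD64 2 h, 415 and 514 at CD32 6 h and 499.5 and 577 at CD32 2 h, against 1022 and 1189 in control. Every cross-linked array was below both control arrays. ESPL1 fell 2.22-fold at CD64 6 h (log2 -1.15 ± 0.18, adjusted p = 0.000858), 2.39-fold at CD32 6 h (log2 -1.25 ± 0.18, adjusted p = 0.000546) and 2.05-fold at CD32 2 h (log2 -1.04 ± 0.18, adjusted p = 0.00258). At CD64 2 h it fell 1.64-fold (log2 -0.71 ± 0.18, adjusted p = 0.0194). The ESPL1 call at CD64 2 h was lost without control array 1, control array 2 or CD64 2 h array 1 (adjusted p up to 0.147). PTTG1, securin, the inhibitor of separase, read 3344 and 3646 at CD64 6 h, 5227 and 5817 at CD64 2 h, 3495 and 3412 at CD32 6 h and 3723 and 3794 at CD32 2 h, against 4314 and 4112 in control. Both CD64 2 h arrays were above both control arrays, and the other cross-linked arrays were below them. PTTG1 rose at CD64 2 h (log2 0.39 ± 0.09, adjusted p = 0.0126) and fell at CD32 6 h (log2 -0.29 ± 0.09, adjusted p = 0.0422). The PTTG1 call at CD64 2 h was lost without control array 2 or CD64 2 h array 2 (adjusted p up to 0.0934). The PTTG1 call at CD32 6 h was lost whichever array was left out (adjusted p up to 0.155). Its probe set can bind near-identical gene copies.

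BUB1, BUB1B, MAD2L1 and TTK act in the checkpoint that delays anaphase. BUB1 read 762 and 869 at CD64 6 h, 1475 and 1315 at CD64 2 h, 1038 and 1023 at CD32 6 h and 906 and 997 at CD32 2 h, against 1526 and 1911 in control. All 8 cross-linked arrays were below both control arrays, those of CD64 2 h the least. BUB1 fell at CD64 6 h (log2 -1.07 ± 0.13, adjusted p = 0.000175), CD32 6 h (log2 -0.73 ± 0.13, adjusted p = 0.00231) and CD32 2 h (log2 -0.85 ± 0.13, adjusted p = 0.00133). BUB1B read 1143 and 989.5 at CD64 6 h, 1633 and 1439.8 at CD64 2 h, 1398 and 1178 at CD32 6 h and 1553 and 1407 at CD32 2 h, against 2006 and 2151 in control. Again all 8 cross-linked arrays were below both control arrays. BUB1B fell by 0.97 at CD64 6 h (adjusted p = 0.000229), by 0.44 at CD64 2 h (adjusted p = 0.0319), by 0.69 at CD32 6 h (adjusted p = 0.00213) and by 0.49 at CD32 2 h (adjusted p = 0.0194) on the log2 scale. The BUB1B call at CD64 2 h was lost whichever array was left out (adjusted p up to 0.2). The BUB1B call at CD32 2 h was lost whichever array was left out (adjusted p up to 0.15).

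MAD2L1 read 1589 and 1569 at CD64 6 h, 2490.1 and 1747 at CD64 2 h, 819 and 1192 at CD32 6 h and 1027 and 900.2 at CD32 2 h, against 2096 and 1937 in control. The CD32 arrays were the 4 lowest and did not overlap with any other group. MAD2L1 fell 2.04-fold at CD32 6 h (log2 -1.03 ± 0.19, adjusted p = 0.00277) and 2.1-fold at CD32 2 h (log2 -1.07 ± 0.19, adjusted p = 0.0031), and its change at CD64 6 h was -0.35 ± 0.19 (adjusted p = 0.247). The MAD2L1 call at CD32 2 h was lost without CD32 2 h array 2 (adjusted p up to 0.0634). TTK read 690.0 and 698 at CD64 6 h, 1114 and 1109 at CD64 2 h, 479 and 638 at CD32 6 h and 564 and 583 at CD32 2 h, against 855 and 719 in control. At CD64 2 h both arrays exceeded the control arrays, and elsewhere they were below them. TTK rose at CD64 2 h (log2 0.50 ± 0.15, adjusted p = 0.0414) and fell at CD32 6 h (log2 -0.50 ± 0.15, adjusted p = 0.0352). The TTK call at CD64 2 h was lost whichever array was left out (adjusted p up to 0.179). The TTK call at CD32 6 h was lost without control array 1 or CD32 6 h array 1 (adjusted p up to 0.218).

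UBE2C, the ubiquitin-conjugating enzyme of the anaphase promoting complex, read 701 and 803 at CD64 6 h, 1335 and 1305 at CD64 2 h, 1166 and 1035 at CD32 6 h and 863 and 947 at CD32 2 h, against 1309 and 1296 in control. The CD64 6 h arrays were the lowest of the 10, and of the cross-linked arrays those of CD64 2 h alone reached the control arrays. UBE2C fell at CD64 6 h (log2 -0.80 ± 0.11, adjusted p = 0.000438) and CD32 2 h (log2 -0.53 ± 0.11, adjusted p = 0.00805). The UBE2C call at CD32 2 h was lost without CD32 2 h array 1 (adjusted p up to 0.0746). CDC20, the activator of the same complex, ranged from 1393 to 2092 over the 10 arrays, with changes against control of -0.20 to 0.27. BUB3, which helps to recruit checkpoint proteins to kinetochores, fell at CD64 6 h (log2 -0.38 ± 0.11, adjusted p = 0.0284). The BUB3 call at CD64 6 h was lost without control array 2, CD64 6 h array 1 or CD64 6 h array 2 (adjusted p up to 0.148).

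Of the 4 kinetochore genes on the array 0 were called at CD64 6 h and at CD64 2 h, 2 fell at CD32 6 h and 1 fell at CD32 2 h. Among all probe sets 20.6%, 15.9%, 20.0% and 15.5% were called in the same order. The median log2 change of the 4 genes was -0.09, 0.35, -0.61 and -0.22 in that order. Over all probe sets tested it was -0.04, -0.13, -0.08 and -0.03. ZWINT, which brings checkpoint proteins to the kinetochore, read 2268 and 2362 at CD64 6 h, 3259 and 2929 at CD64 2 h, 1434 and 1476 at CD32 6 h and 1719 and 1789.7 at CD32 2 h, against 2730.4 and 2440.1 in control. The 4 CD32 arrays were the lowest, and the CD64 6 h arrays were just below the control arrays. ZWINT fell 1.77-fold at CD32 6 h (log2 -0.83 ± 0.09, adjusted p = 0.000121) and 1.47-fold at CD32 2 h (log2 -0.56 ± 0.09, adjusted p = 0.00231), and its change at CD64 6 h was -0.16 ± 0.09 (adjusted p = 0.304). NDC80, which couples kinetochores to microtubules, read 652 and 585 at CD64 6 h, 883 and 919 at CD64 2 h, 449 and 389 at CD32 6 h and 654 and 510.4 at CD32 2 h, against 607 and 748 in control. Control arrays were exceeded at CD64 2 h, and the CD32 6 h arrays were below both of them. NDC80 fell at CD32 6 h (log2 -0.69 ± 0.16, adjusted p = 0.0118). The NDC80 call at CD32 6 h was lost without control array 2 or CD32 6 h array 2 (adjusted p up to 0.0879). CENPE, a motor of the outer kinetochore, read 409 and 374 at CD64 2 h and 394 and 296 at CD32 2 h. Control read 195.5 and 288, and the 6 h arrays of both receptors 192 to 269. Its 2 h arrays were thus above both control arrays with either receptor. Its changes of 0.72 at CD64 2 h and 0.53 at CD32 2 h were the highest of the 37 genes there and were not called. CENPF, a large kinetochore protein, ranged from 118 to 278, and both ends of that range were control arrays.

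Of the 7 kinesin and cytokinesis genes, 2 fell at CD64 6 h, 0 were called at CD64 2 h, 3 fell at CD32 6 h and 2 fell at CD32 2 h. The shares of all probe sets called were 20.6%, 15.9%, 20.0% and 15.5% in the same order. KIF2C, a kinesin that takes apart microtubule ends at centromeres, read 822 and 800.0 at CD64 6 h, 1248 and 1142 at CD64 2 h, 928 and 899 at CD32 6 h and 851 and 845 at CD32 2 h, against 1358 and 1586 in control. All 8 cross-linked arrays were below the control arrays, those of CD64 2 h the least. KIF2C fell by 0.86 at CD64 6 h (adjusted p = 0.000229), by 0.68 at CD32 6 h (adjusted p = 0.00109) and by 0.79 at CD32 2 h (adjusted p = 0.00062) on the log2 scale. Its change at CD64 2 h was -0.30 ± 0.11 (adjusted p = 0.0903). KIF20A, a kinesin of the central spindle, read 611 and 509 at CD64 6 h, 922 and 968 at CD64 2 h, 524 and 564 at CD32 6 h and 667 and 639 at CD32 2 h, against 842 and 1115 in control. Its CD64 2 h arrays lay between the control arrays, and the other cross-linked arrays below them. KIF20A fell by 0.80 at CD64 6 h (adjusted p = 0.00323), by 0.83 at CD32 6 h (adjusted p = 0.00269) and by 0.57 at CD32 2 h (adjusted p = 0.0273) on the log2 scale. The KIF20A call at CD32 2 h was lost without control array 2, CD32 2 h array 1 or CD32 2 h array 2 (adjusted p up to 0.15).

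KIF23, a kinesin of the complex that organises the central spindle, read 289 and 175 at CD64 6 h, 465 and 485 at CD64 2 h, 177 and 159.6 at CD32 6 h and 402 and 226 at CD32 2 h, against 337 and 319.7 in control. The CD64 2 h arrays were above and the 6 h arrays of both receptors below the control arrays, with duplicates far apart at CD64 6 h and CD32 2 h. KIF23 fell at CD32 6 h (log2 -0.96 ± 0.31, adjusted p = 0.0491), and its change at CD64 6 h was -0.55 ± 0.31 (adjusted p = 0.277). The KIF23 call at CD32 6 h was lost whichever array was left out (adjusted p up to 0.194). RACGAP1, the partner of KIF23 in that complex, read 1858 and 1358 at CD64 6 h, 2496 and 2116 at CD64 2 h, 938 and 1312 at CD32 6 h and 1305 and 1087 at CD32 2 h, against 1515 and 1565 in control. The CD64 2 h arrays were above both control arrays and the CD32 arrays below them. None of its changes passed the test: 0.04 ± 0.18 at CD64 6 h (adjusted p = 0.937), 0.58 ± 0.18 at CD64 2 h (0.0558), -0.47 ± 0.18 at CD32 6 h (0.0983) and -0.37 ± 0.18 at CD32 2 h (0.23). PRC1, KIF11 and KIF4A, which act on spindle microtubules, were not called against control either, with changes of -0.44 to 0.27.

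The last 2 genes encode proteins of the chromosomes, and TOP2A was called in 3 of the 4 comparisons and MKI67 in 0. TOP2A, the topoisomerase that untangles sister chromatids, read 1317 and 1314 at CD64 6 h, 2574 and 2644 at CD64 2 h, 1709.9 and 1679 at CD32 6 h and 1385 and 1149.7 at CD32 2 h, against 2731 and 2963 in control. The arrays of CD64 6 h, CD32 6 h and CD32 2 h stood at 1149.7 to 1709.9 and those of CD64 2 h and control at 2574 to 2963, with no overlap. TOP2A fell 2.16-fold at CD64 6 h (log2 -1.11 ± 0.10, adjusted p = 3.17e-05), 1.68-fold at CD32 6 h (log2 -0.75 ± 0.10, adjusted p = 0.000422) and 2.25-fold at CD32 2 h (log2 -1.17 ± 0.10, adjusted p = 2.85e-05). Its change at CD64 2 h was -0.12 ± 0.10 (adjusted p = 0.488). MKI67, which encodes the proliferation marker Ki-67, read 269 and 268 at CD64 6 h, 309 and 225 at CD64 2 h, 231 and 336 at CD32 6 h and 231 and 415 at CD32 2 h, against 453 and 474 in control. All 8 cross-linked arrays were below both control arrays, but the CD32 2 h arrays stood far apart. None of the 4 changes of MKI67 passed the test: -0.79 ± 0.30 at CD64 6 h (adjusted p = 0.0939), -0.82 ± 0.30 at CD64 2 h (0.0948), -0.73 ± 0.30 at CD32 6 h (0.116) and -0.58 ± 0.30 at CD32 2 h (0.252).

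**Figure D3:**
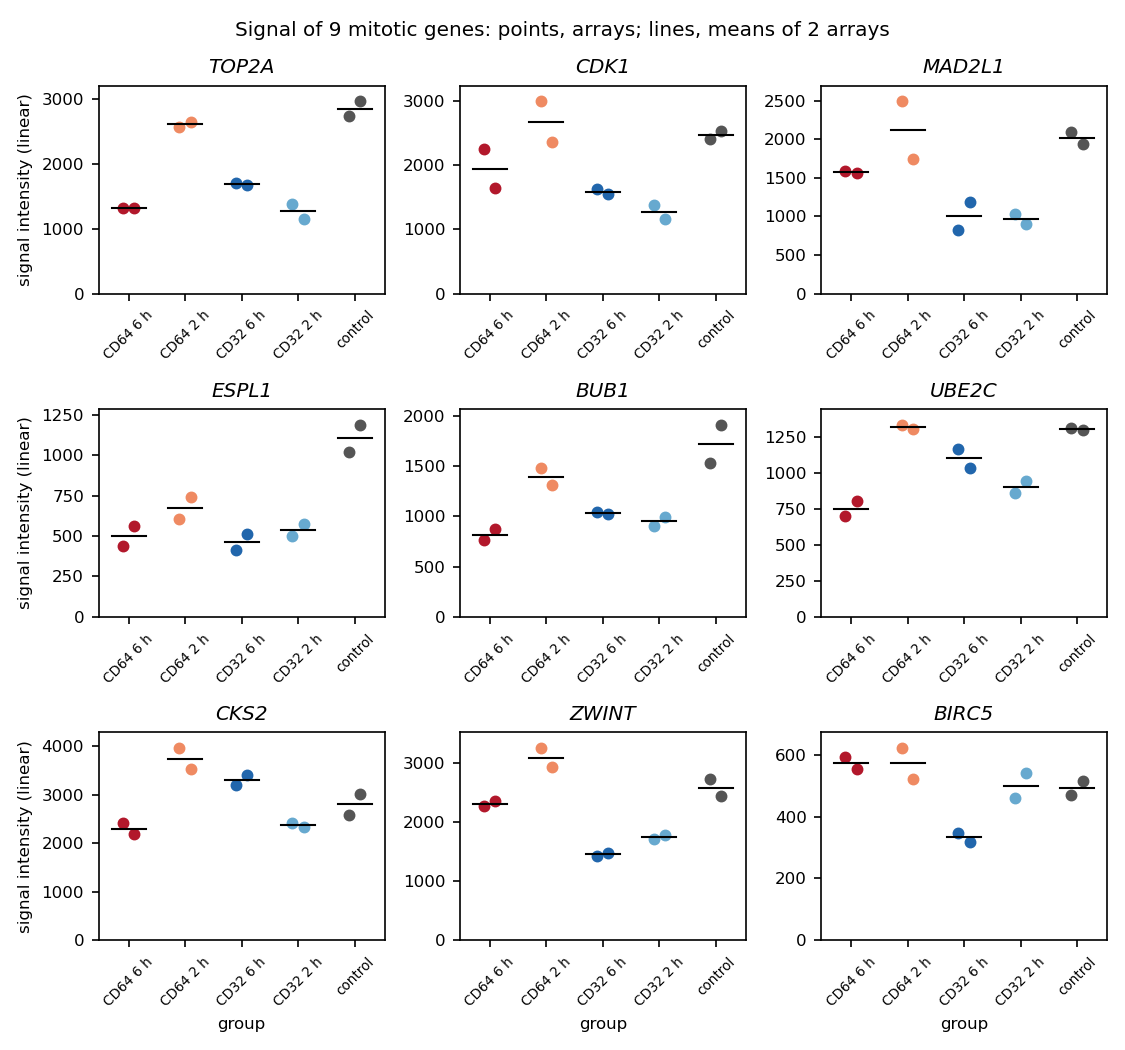
Signal intensity (linear scale from 0) of 9 of the genes in the 5 groups; points are single arrays and lines are means of the 2 arrays. TOP2A is low at CD64 6 h, CD32 6 h and CD32 2 h, UBE2C is lowest at CD64 6 h and CD32 2 h, and both are near control at CD64 2 h. ESPL1 is below control in 4 of 4 cross-linked groups, and BIRC5 is low at CD32 6 h.

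The receptors were compared with each other at each time, and the control arrays entered these tests only through the spread that the 5 groups share in the fit. At 6 h, 4 genes were higher with CD64 than with CD32 (BIRC5, MAD2L1, ZWINT and NDC80) and 4 lower (UBE2C, TPX2, CKS2 and TOP2A), where 17.6% of all probe sets were called, 9.81% higher and 7.8% lower. The share called among the 37 genes, 21.6%, was close to that of all probe sets. Both CD64 arrays read above both CD32 arrays for 12 of the 37 genes and below them for 11, as they did for 33.1% and 23.6% of all probe sets. The median difference was 0.04 over the 37 genes and 0.05 over all probe sets. After quantile normalization it changed sign to -0.02 over the 37 genes, against 0.006 over all probe sets. BIRC5 differed most, at 594 and 555 with CD64 and 348 and 318 with CD32 (log2 0.79 ± 0.16, adjusted p = 0.00552). The BIRC5 call at 6 h was lost without CD64 6 h array 1 (adjusted p up to 0.0561). ZWINT read 2268 and 2362 with CD64 and 1434 and 1476 with CD32 (log2 0.67 ± 0.09, adjusted p = 0.000677), and TPX2 read 2303 and 2272 with CD64 and 3283 and 3362 with CD32 (log2 -0.54 ± 0.09, adjusted p = 0.0028). In these 3 genes the arrays of the 2 receptors did not overlap. ZWINT and TPX2 were called whichever array was left out, and the other 6 were not. The count was 3 without CD64 6 h array 1, 4 without CD64 6 h array 2, 4 without CD32 6 h array 1 and 7 without CD32 6 h array 2. UBE2C differed by -0.55 ± 0.11 (adjusted p = 0.00597) and MAD2L1 by 0.68 ± 0.19 (adjusted p = 0.0295). The UBE2C call at 6 h was lost without CD32 6 h array 1 or CD64 6 h array 1 (adjusted p up to 0.0649). The MAD2L1 call at 6 h was lost without CD32 6 h array 1, CD64 6 h array 1 or CD64 6 h array 2 (adjusted p up to 0.26). With the 4 arrays of 6 h fitted alone, 4 of the 37 genes and 6.59% of all probe sets were called.

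At 2 h, 20 of the 37 genes were higher with CD64 than with CD32 and 0 lower, where 16.3% of all probe sets were called, 6.86% higher and 9.43% lower. At this time both CD64 arrays read above both CD32 arrays for 25 of the 37 genes and below them for 5, as they did for 20.7% and 35.1% of all probe sets. The median difference was 0.49, against -0.11 over all probe sets. After quantile normalization it was 0.45, against 0.00 over all probe sets, with 19 genes higher and 1 lower (CDC20). MAD2L1 differed most, at 2490.1 and 1747 with CD64 and 1027 and 900.2 with CD32 (log2 1.12 ± 0.19, adjusted p = 0.00239). The MAD2L1 call at 2 h was lost without CD32 2 h array 2 (adjusted p up to 0.055). CDK1 read 2992 and 2365 with CD64 and 1387 and 1162 with CD32, a 2.1-fold difference (log2 1.07 ± 0.16, adjusted p = 0.00124). The CD64 arrays of both genes lay above the CD32 arrays without overlap. TOP2A differed by 1.05 ± 0.10 (adjusted p = 0.000119), TTK by 0.95 ± 0.15 (adjusted p = 0.00157) and RACGAP1 by 0.95 ± 0.18 (adjusted p = 0.00514). The RACGAP1 call at 2 h was lost without CD32 2 h array 2 or CD64 2 h array 1 (adjusted p up to 0.0907). For CCNA2 the difference was 0.84 ± 0.12 (adjusted p = 0.000949) with the probe set of higher mean and -0.08 ± 0.12 (adjusted p = 0.747) with the other. For AURKA it was 0.49 ± 0.10 (adjusted p = 0.00654) with the probe set of higher mean and 0.14 ± 0.10 (adjusted p = 0.447) with the other. By role, the higher genes were 5 of 7 around CDK1, 3 of 8 kinases and spindle factors, 5 of 9 of the checkpoint and anaphase, 2 of 4 of the kinetochore, 4 of 7 kinesin and cytokinesis genes, and TOP2A. The count was 15 without CD32 2 h array 1, 12 without CD32 2 h array 2, 14 without CD64 2 h array 1 and 16 without CD64 2 h array 2. CDK1, CCNA2, CKS1B, CKS2, NEK2, TTK, PTTG1, ZWINT and TOP2A were called in each of these fits. With the 4 arrays of 2 h fitted alone, 3 of the 37 genes and 3.92% of all probe sets were called.

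**Figure D4:**
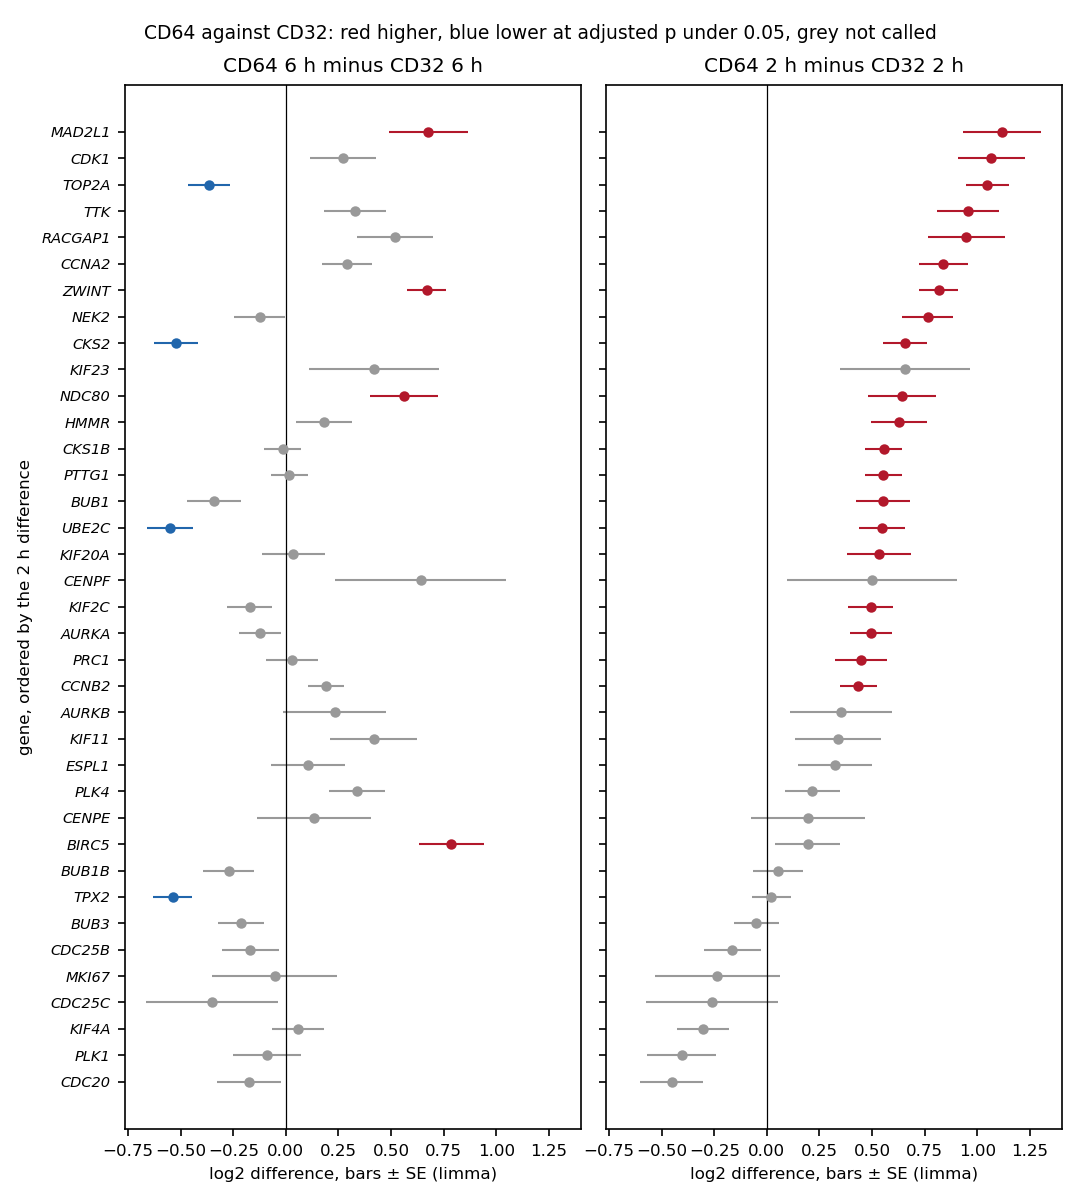
Log2 difference CD64 minus CD32 of the 37 genes at 6 h (left) and 2 h (right), with bars of ± SE; red is higher and blue lower at an adjusted p under 0.05, and grey was not called. At 2 h 20 genes are red and 0 blue, and at 6 h 4 are red and 4 blue.

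At 6 h of CD64 cross-linking, against 2 h, 0 genes rose and 21 fell, where 13.8% of all probe sets were called, 7.56% higher and 6.25% lower. Both 6 h arrays read below both 2 h arrays for 30 of the 37 genes and above them for 1, as they did for 19.2% and 33.6% of all probe sets. The median log2 change was -0.53, against 0.09 over all probe sets tested. TOP2A read 1317 and 1314 at 6 h and 2574 and 2644 at 2 h, a 1.98-fold fall (log2 -0.99 ± 0.10, adjusted p = 0.000154). KIF23 read 289 and 175 at 6 h and 465 and 485 at 2 h (log2 -1.08 ± 0.31, adjusted p = 0.0402). The KIF23 call was lost without CD64 2 h array 1, CD64 2 h array 2 or CD64 6 h array 2 (adjusted p up to 0.282). In both genes the 6 h arrays were below the 2 h arrays without overlap. AURKA fell by 0.83 (adjusted p = 0.000448), UBE2C by 0.81 (adjusted p = 0.000882) and BUB1 by 0.77 (adjusted p = 0.00261) on the log2 scale. The other AURKA probe set also fell (-0.38 ± 0.10, adjusted p = 0.0289). CCNA2 fell by 0.52 on the log2 scale (adjusted p = 0.0144), and its other probe set changed by -0.34 ± 0.12 (adjusted p = 0.0928). The count was 14 without CD64 6 h array 1, 10 without CD64 6 h array 2, 12 without CD64 2 h array 1 and 13 without CD64 2 h array 2. CCNB2, CKS1B, CKS2, AURKA, NEK2, BUB1, UBE2C, PTTG1 and TOP2A fell in each of these fits. With the 4 CD64 arrays fitted alone, 0 of the 37 genes and 0.0389% of all probe sets were called (limma), and 22 of the 37 had an unadjusted p under 0.05.

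At 6 h of CD32 cross-linking, against 2 h, 2 genes rose (CKS2 and TOP2A) and 1 fell (CCNB2), where 4.46% of all probe sets were called, 2.04% higher and 2.43% lower. With CD32 both 6 h arrays read below both 2 h arrays for 17 of the 37 genes and above them for 9, as they did for 29.0% and 19.4% of all probe sets. CKS2 read 3195 and 3403 at 6 h and 2415 and 2322 at 2 h (log2 0.48 ± 0.10, adjusted p = 0.0283). TOP2A read 1709.9 and 1679 at 6 h and 1385 and 1149.7 at 2 h (log2 0.42 ± 0.10, adjusted p = 0.0411). CCNB2 read 2124 and 2022 at 6 h and 2639 and 2641 at 2 h (log2 -0.35 ± 0.09, adjusted p = 0.0495). The arrays of the 2 times did not overlap in these 3 genes. The CCNA2 probe set of lower mean fell too (-0.48 ± 0.12, adjusted p = 0.0479), and that of higher mean, which stands for the gene, changed by 0.03 ± 0.12 (adjusted p = 0.951). The count was 0 whichever of the 4 arrays was left out, with adjusted p up to 0.189 for CKS2, 0.223 for TOP2A and 0.194 for CCNB2. The median log2 change of the 37 genes was -0.12, against -0.05 over all probe sets.

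The difference between these changes, CD64 minus CD32, was tested as the interaction of receptor and time. It was called below 0 for 11 genes and above 0 for 0, where 11.5% of all probe sets were called, 4.75% below 0 and 6.72% above. Over the 37 genes its median was -0.32, against 0.16 over all probe sets. After quantile normalization it was -0.42, against -0.005 over all probe sets, and 7 genes were called. For TOP2A the change was -0.99 ± 0.10 with CD64 and 0.42 ± 0.10 with CD32, a difference of -1.41 ± 0.14 (adjusted p = 0.000254). For CKS2 it was -0.70 ± 0.10 with CD64 and 0.48 ± 0.10 with CD32, a difference of -1.18 ± 0.15 (adjusted p = 0.000771). For UBE2C it was -0.81 ± 0.11 with CD64 and 0.28 ± 0.11 with CD32, a difference of -1.10 ± 0.16 (adjusted p = 0.00145). These 3 genes fell with CD64 and had estimates above 0 with CD32. The difference was -0.89 for NEK2 (adjusted p = 0.00792) and -0.89 for BUB1 (adjusted p = 0.0101). For AURKA it was -0.62 ± 0.14 (adjusted p = 0.0172), but -0.17 ± 0.14 (adjusted p = 0.54) with its other probe set. CKS2, NEK2, UBE2C and TOP2A were called whichever of the 8 arrays was left out, and the other 7 were not. The count was 4 without CD32 2 h array 1, 5 without CD64 6 h array 1, 7 without CD32 6 h array 1, 7 without CD64 2 h array 1, and 8 when any of the other 4 was left out. BIRC5 had the largest estimate above 0 (0.59 ± 0.22, adjusted p = 0.118), with a change of 0.01 ± 0.16 with CD64 and -0.59 ± 0.16 with CD32.

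**Figure D5:**
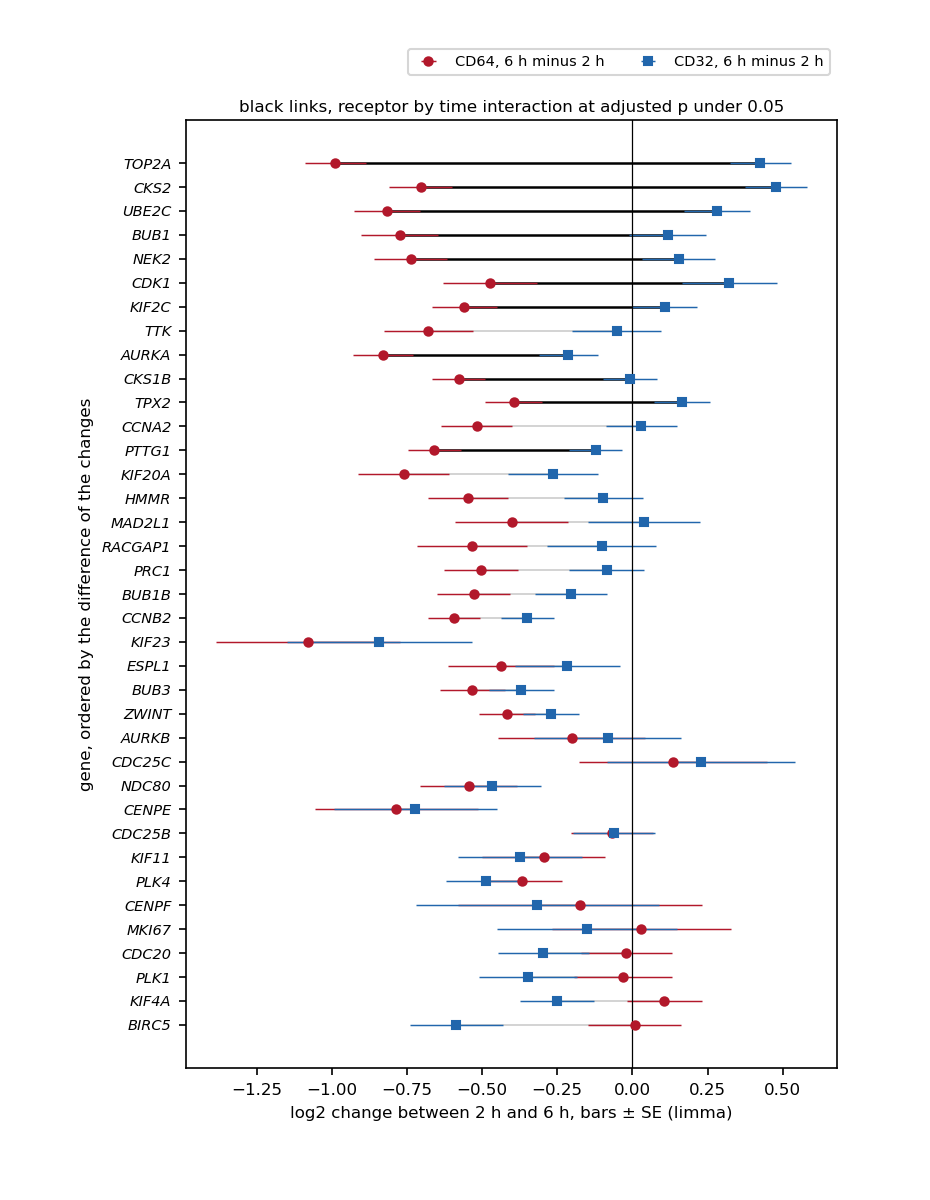
Log2 change, 6 h minus 2 h, with CD64 (red circles) and CD32 (blue squares), with bars of ± SE, for the 37 genes in order of the difference; black links mark an interaction with an adjusted p under 0.05. The 11 black links all run from a CD64 change below 0 to a higher CD32 change, the longest for TOP2A at -0.99 with CD64 and 0.42 with CD32.

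Other genes of the same processes were counted from lists that, like the genes above, were written with earlier results of these data known. Of all probe sets 10.7% rose and 9.94% fell at CD64 6 h, 7.64% and 8.24% at CD64 2 h, 9.63% and 10.3% at CD32 6 h and 8.86% and 6.6% at CD32 2 h. Of 16 other mitotic genes on the array, of 31 listed, 6 fell and 1 rose at CD64 6 h, 3 fell and 1 rose at CD64 2 h, 8 fell at CD32 6 h and 6 fell at CD32 2 h. SPAG5, a spindle protein, fell in each of the 4, by 1.44 at CD64 6 h, 0.65 at CD64 2 h, 1.22 at CD32 6 h and 1.06 at CD32 2 h on the log2 scale (adjusted p = 6.64e-05, 0.0129, 0.000205 and 0.000748). The SPAG5 call at CD64 2 h was lost without control array 1, control array 2 or CD64 2 h array 1 (adjusted p up to 0.11). Of 10 condensin and cohesin genes on the array, of 18 listed, 3 fell at CD64 6 h, 1 rose at CD64 2 h, 4 fell at CD32 6 h and 3 fell at CD32 2 h. The gene that rose was NCAPG, a condensin subunit, at 1487 and 1265 with CD64 2 h, against 782 and 888 in control (log2 0.72 ± 0.14, adjusted p = 0.00498). The NCAPG call at CD64 2 h was lost without control array 1 or CD64 2 h array 1 (adjusted p up to 0.058). SMC4, another condensin subunit, fell at CD64 6 h (log2 -0.45 ± 0.10, adjusted p = 0.00771), CD32 6 h (log2 -0.79 ± 0.10, adjusted p = 0.000268) and CD32 2 h (log2 -0.62 ± 0.10, adjusted p = 0.00181). The SMC4 call at CD64 6 h was lost without control array 1 or CD64 6 h array 2 (adjusted p up to 0.0775). Of 8 genes of the anaphase promoting complex and its regulators, of 17 listed, 1 fell and 1 rose at CD64 6 h, 2 rose at CD64 2 h, 2 fell at CD32 6 h, and 1 rose and 1 fell at CD32 2 h. FBXO5, an inhibitor of that complex, fell at CD32 6 h (log2 -0.94 ± 0.20, adjusted p = 0.00601) and CD32 2 h (log2 -0.69 ± 0.20, adjusted p = 0.0369). The FBXO5 call at CD32 6 h was lost without control array 1 or CD32 6 h array 1 (adjusted p up to 0.0789). The FBXO5 call at CD32 2 h was lost whichever array was left out (adjusted p up to 0.231).

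Of 17 genes on the array that control the transcription of late cell cycle genes, of 24 listed, 3 rose and 2 fell at CD64 6 h, 2 rose at CD64 2 h, 4 rose and 3 fell at CD32 6 h, and 4 rose and 1 fell at CD32 2 h. CDKN1A, p21, an inhibitor of cyclin-dependent kinases, read 284 and 309 at CD64 6 h, 118 and 171 at CD64 2 h, 1089.6 and 1132 at CD32 6 h and 323 and 461 at CD32 2 h, against 37 and 16.5 in control. Both control arrays were under the floor, so CDKN1A was at least 7.9-fold higher at CD64 6 h, 3.79-fold at CD64 2 h, 29.6-fold at CD32 6 h and 10.3-fold at CD32 2 h (adjusted p = 3.36e-05, 0.000956, 1.47e-06 and 1.99e-05). E2F6, a repressor of the E2F family, read 539 and 502 at CD64 6 h, 604 and 568 at CD64 2 h, 577 and 567 at CD32 6 h and 421 and 467 at CD32 2 h, against 162 and 224 in control. Every cross-linked array was above both control arrays. E2F6 rose by 1.45 at CD64 6 h, 1.62 at CD64 2 h, 1.59 at CD32 6 h and 1.22 at CD32 2 h on the log2 scale (adjusted p = 0.0002, 0.000223, 0.000118 and 0.000997). RB1, the retinoblastoma protein that restrains E2F, fell at CD32 6 h (log2 -0.58 ± 0.15, adjusted p = 0.0178) and CD32 2 h (log2 -0.85 ± 0.15, adjusted p = 0.00281). The RB1 call at CD32 6 h was lost without control array 1, CD32 6 h array 1 or CD32 6 h array 2 (adjusted p up to 0.144). Of 9 brakes on mitotic entry, of 11 listed, 1 fell at CD64 6 h, 1 fell at CD64 2 h, 2 rose and 2 fell at CD32 6 h and 1 fell at CD32 2 h. The 1 of 9 called at CD64 6 h, CD64 2 h and CD32 2 h is no more than the share of all probe sets called there (20.6%, 15.9% and 15.5%), and 9 genes are too few to set it below. The gene that fell at CD64 6 h and CD64 2 h was PPP2R1A. PPP2R1A read 513 and 499 at CD64 6 h and 517 and 466 at CD64 2 h, against 935 and 1031 in control. Both falls were called (limma, adjusted p = 0.000384 and 0.000547). With 1 array left out they were at least 0.886 and 0.926 on the log2 scale. PPP2R1A rose at CD32 6 h (log2 0.43 ± 0.13, adjusted p = 0.0379), a call lost whichever array was left out. CHEK1, the checkpoint kinase that delays mitosis, fell at CD32 6 h (log2 -0.81 ± 0.24, adjusted p = 0.0336). The CHEK1 call at CD32 6 h was lost whichever array was left out (adjusted p up to 0.142).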

How the data were processed

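The values are signal intensities of a human 1-colour expression array, 1 table per array, deposited by the authors on a linear scale with a 2% trimmed mean of 500.457 to 500.633 on each array. The labels' protocols describe total RNA of U937 cells, and the summary software and its settings are not given in the sources used here. Groups came from the labels. Signals were set to a floor of 37.5 (percentile 25 of all values), turned to log2, and kept where above the floor on at least 2 of 10 arrays and not a control, which left 7708 of 8793 probe sets. The 5 groups were fitted in 1 model with limma 3.58.1 in R 4.3.3 with a variance trend, 9 contrasts were taken, and p-values were adjusted by Benjamini-Hochberg over the 7708 within each contrast. Each gene had the probe set with 1 gene symbol and the highest mean. Values per array are given for up to 8 called genes with the largest change in each comparison with control, up to 5 in each other comparison, CDK1, TOP2A, PLK1 and MKI67 whatever their change, genes called against the majority, and genes whose probe sets differ in their calls. Of each further list up to 3 called genes per comparison with control could be named, and those with their values were taken from these. The genes and lists were chosen with earlier results of these data known. Alternatives were quantile and cyclic loess normalization, floors at percentiles 10 and 40, no filter, no variance trend, the compared groups alone, the mean of a gene's probe sets, and each array left out. Fits were tested on simulated data. Probe set annotation and promoter sequences were tables of the array platform and of RefSeq (GRCh38.p14).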

Additional observations from a re-analysis of the deposited data

Results flagged for a closer look

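The change over time, 6 h minus 2 h, differed between the receptors in 11 genes by the test of the difference itself (limma interaction, adjusted p under 0.05 over all probe sets). The difference is the CD64 change minus the CD32 change on the log2 scale. It was -1.41 for TOP2A, -1.18 for CKS2, -1.10 for UBE2C, -0.89 for BUB1, -0.89 for NEK2 and -0.80 for CDK1. It was -0.67 for KIF2C, -0.62 for AURKA, -0.57 for CKS1B, -0.56 for TPX2 and -0.54 for PTTG1. The other AURKA probe set gave -0.17 ± 0.14 (adjusted p = 0.54), so the AURKA call rests on 1 of 2 probe sets. The 11 differences run the same way, with the lower change under CD64, and 4 of the 11 genes (CKS2, NEK2, UBE2C and TOP2A) were called whichever of the 8 arrays was left out. The control probe sets and the 3'/5' ratios, which ranged from 1.12 to 1.99 for actin and from 0.88 to 1.17 for GAPDH over these 4 groups, are given above, and their part in the 11 differences was not tested.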

How the results depend on the processing

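Counts here are genes called of the 37, with the share of all probe sets called in the same fit in brackets. With the groups compared fitted alone, which leaves fewer arrays to estimate the spread, the count was 0 for CD64 2 h against control, 7 for CD32 6 h and 3 for CD32 2 h (0%, 4.99% and 3.02% of all probe sets). There it was 4 for CD64 against CD32 at 6 h and 3 at 2 h (6.59% and 3.92%), and 0 for 6 h against 2 h with either receptor (0.0389% with CD64 and 0% with CD32). With no variance trend it was 0 for CD64 2 h and 13 for CD32 6 h against control (9.41% and 15.0%), 4 for CD64 against CD32 at 6 h and 11 at 2 h (11.9% and 10.8%), 10 for 6 h against 2 h with CD64 and 0 with CD32 (7.51% and 0.701%), and 3 for the interaction (5.41%). With no filter on low signals it was 1 for CD64 2 h against control, 5 for CD64 against CD32 at 6 h and 0 for 6 h against 2 h with CD32 (11.4%, 12.6% and 3.02%). With quantile normalization the interaction called 7 (7.46%). At an unadjusted p under 0.05, the counts of 0 were 13 for CD64 2 h against control, 22 for 6 h against 2 h with CD64 and 12 with CD32 with the groups compared fitted alone, 9 for CD64 2 h and 9 for 6 h against 2 h with CD32 with no variance trend, and 12 for 6 h against 2 h with CD32 with no filter. The share of all probe sets called fell in each of these fits too, and why the counts moved was not tested. The part of the smaller number of arrays in the fits of the groups compared alone was not tested either. With 1 array left out, where the lone array is taken to vary like the other groups, the count was 11 to 14 for CD64 6 h, 1 to 3 for CD64 2 h, 13 to 14 for CD32 6 h and 9 to 14 for CD32 2 h against control (12.5% to 16.7%, 8.33% to 12.8%, 12.2% to 17.1% and 7.51% to 11.5%). It was 3 to 7 for CD64 against CD32 at 6 h, 12 to 16 at 2 h, 10 to 14 for 6 h against 2 h with CD64, 0 with CD32, and 4 to 8 for the interaction (8.38% to 12.3%, 7.60% to 9.99%, 5.90% to 7.81%, 0.519% to 1.69% and 6.07% to 7.81%). Of 1308 values of single called genes under the alternatives, 969 kept their direction and call, 339 kept their direction but lost the call, and 0 changed direction. These 1308 values cover 106 calls among the 25 genes picked for values per array, mainly by their large changes, and not every called gene. No paired analysis was possible because the labels number the control arrays alone and name the cross-linked pairs by the word duplicate, so the groups compared share no replicate numbers. The signal over background and 2 arrays a group limit what could be called.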

Other observations

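Genes of mitotic structures moved in both directions. Of 13 genes of microtubules, the nuclear lamina and their regulators on the array, of 18 listed, 2 rose and 3 fell at CD64 6 h, 2 rose and 2 fell at CD64 2 h, 5 rose and 1 fell at CD32 6 h, and 3 rose and 1 fell at CD32 2 h. The share of all probe sets called was 20.6% at CD64 6 h, 15.9% at CD64 2 h, 20.0% at CD32 6 h and 15.5% at CD32 2 h, with rises and falls as given above. TACC3, a spindle protein, fell at CD64 6 h (log2 -0.80 ± 0.14, adjusted p = 0.0016), as did TUBB, a beta-tubulin (log2 -0.75 ± 0.14, adjusted p = 0.00255), and both calls held whichever array was left out. TUBG1, gamma-tubulin, fell at CD64 2 h (log2 -0.74 ± 0.20, adjusted p = 0.0282) and CD32 6 h (log2 -0.81 ± 0.20, adjusted p = 0.0145). The TUBG1 call at CD64 2 h was lost without control array 1 or CD64 2 h array 2 (adjusted p up to 0.186). The TUBG1 call at CD32 6 h was lost without control array 1, CD32 6 h array 1 or CD32 6 h array 2 (adjusted p up to 0.108). LMNB1, lamin B1, fell at CD64 6 h (log2 -0.58 ± 0.17, adjusted p = 0.0363) and CD32 2 h (log2 -0.69 ± 0.17, adjusted p = 0.0203). The LMNB1 call at CD64 6 h was lost without control array 1, control array 2 or CD64 6 h array 2 (adjusted p up to 0.263). The LMNB1 call at CD32 2 h was lost whichever array was left out (adjusted p up to 0.111). TACC1, a centrosome-associated protein, read 1799 and 1892 at CD64 6 h, 1819.6 and 1925 at CD64 2 h, 1884 and 1877 at CD32 6 h and 2048 and 2075 at CD32 2 h, against 894 and 949 in control. Every cross-linked array was above both control arrays, and TACC1 rose 2-fold at CD64 6 h, 2.03-fold at CD64 2 h, 2.04-fold at CD32 6 h and 2.24-fold at CD32 2 h (limma, adjusted p = 2.03e-05, 5.05e-05, 1.57e-05 and 9.3e-06). MAPRE1, which encodes the microtubule end-binding protein EB1, rose by 0.73 at CD64 6 h, 0.63 at CD64 2 h, 0.78 at CD32 6 h and 0.88 at CD32 2 h on the log2 scale (adjusted p = 0.000415, 0.0017, 0.000297 and 0.000184).

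STIL, a centriole duplication protein, read 989 and 871 at CD64 6 h, 991 and 907 at CD64 2 h, 641 and 708 at CD32 6 h and 583 and 589 at CD32 2 h, against 528 and 554 in control. STIL rose at CD64 6 h (log2 0.78 ± 0.12, adjusted p = 0.000894) and CD64 2 h (log2 0.81 ± 0.12, adjusted p = 0.00116). CDC16, a subunit of the anaphase promoting complex, rose at CD64 6 h (log2 0.83 ± 0.12, adjusted p = 0.000711), CD64 2 h (log2 0.63 ± 0.12, adjusted p = 0.006) and CD32 2 h (log2 0.68 ± 0.12, adjusted p = 0.00382). LMNA, the gene of lamins A and C, rose at CD32 6 h (log2 0.94 ± 0.11, adjusted p = 0.000145) and fell at CD64 2 h (log2 -0.36 ± 0.11, adjusted p = 0.0457). The LMNA call at CD64 2 h was lost whichever array was left out (adjusted p up to 0.193).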
